A study of Mus musculus with 31 samples.

Results

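The acetylated gained sites are Foxa1/2 peaks of Nkx2-1-deleted mouse lung adenocarcinomas that lay in chromatin with an H3K27ac island in both tumor types, although no Foxa1/2 peak was called there in tumors that retained Nkx2-1. They were chosen as peaks of the deleted-tumor Foxa1/2 list on chromosomes 1 to 19 that overlapped by at least 1 bp neither a Foxa1/2 peak nor an Nkx2-1 peak of positive tumors, and that overlapped an H3K27ac island in both tumor types. Of 14282 autosomal peaks of that list (14526 on all chromosomes), 2699 met the rule. The sites were thus chosen by Foxa1/2 and Nkx2-1 calls and by the presence of H3K27ac islands, so these values are given as a description and support nothing.

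The forkhead proteins Foxa1 and Foxa2 act in lung, stomach, gut and liver epithelium, and are known as pioneer factors that can bind their motif in closed chromatin. Nkx2-1 is a homeodomain factor that specifies the lung lineage and shares many lung enhancers with Foxa1/2. Acetylation of histone H3 at lysine 27 (H3K27ac) marks active enhancers and promoters, H3K4me1 marks enhancers in general, H3K4me3 marks promoters, and H3K27me3 marks chromatin silenced by Polycomb proteins. Gained Foxa1/2 peaks can thus be sorted by whether acetylation was called in both tumor types, in deleted tumors alone or in neither.

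Mice of 4 to 7 months on a mixed 129/B6 background provided lung adenocarcinomas in which Nkx2-1 was either deleted or present (positive). The protocol for all mice states intratracheal infection with adenovirus or lentivirus and tamoxifen at 56 or 112 µg per g body weight. Which mice received which virus or dose, the alleles of the tumor model and the cell type in which Nkx2-1 was deleted are not given in the sources used here. Foxa1/2 (1 antibody for both proteins), H3K27ac, H3K4me1, H3K4me3 and H3K27me3 were profiled by chromatin immunoprecipitation and sequencing in each tumor type, and Nkx2-1 in positive tumors alone. Each of the 11 groups had 2 libraries. Both deposited files of every group were identical, so a group is 1 pooled list, no difference has a replicate check, and intervals below cover counting error over peaks, which are not replicates. Both Foxa1/2 libraries of deleted tumors came from female mice and both of positive tumors from male mice, so tumor type and sex cannot be told apart for the gain itself. Each histone group pooled 1 male with 1 female mouse. The tumors were pulverized whole, so more cells of a type and more signal per cell cannot be told apart.

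The lists of deleted tumors were shorter for each antibody. Foxa1/2 peaks numbered 14526 in deleted and 23039 in positive tumors, and H3K27ac islands numbered 61981 in deleted and 73539 in positive tumors. Reads inside islands are the only measure of depth that the lists hold. For H3K27ac they came to 31.2 M in deleted and 45.7 M in positive tumors. For H3K4me1 they were 29.8 M in deleted and 35.8 M in positive tumors, and for H3K4me3 19.6 M and 28.9 M. For H3K27me3 they were higher in deleted tumors, with 19.8 M against 18.5 M. The H3K4me3 islands covered 62.5 Mb in deleted and 102 Mb in positive tumors. The sources used here give no total library depth.

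Most of the Foxa1/2 peaks gained outside Nkx2-1 sites belonged to this class. The step from the whole list to the sites ran over 4696 peaks with no positive-tumor Foxa1/2 peak (32.9% of the list) and 4320 of these with no Nkx2-1 peak either (30.2%). The 2699 sites made up 62.5% of the 4320 (Clopper-Pearson 95% interval 61.0 to 63.9%). In the whole list, 11694 of 14282 peaks had an H3K27ac island in both tumor types, which is a larger share. Another 785 gained peaks (18.2%) had an H3K27ac island in deleted tumors alone, a pattern of 6.96% of the whole list, and are called newly acetylated here. A further 729 (16.9%) had no H3K27ac island in either tumor type, and 107 (2.48%, against 2.82% of the whole list) had one in positive tumors alone. These classes follow from the rule, and nothing is read from their shares. As a yardstick that shares the acetylation but not the gain, the 3527 autosomal peaks with Foxa1/2 in both tumor types, no Nkx2-1 peak and H3K27ac in both are called constant sites. On single chromosomes the acetylated gained sites made up between 15.1% of the deleted-tumor Foxa1/2 peaks (chromosome 18) and 22.2% (chromosome 8).

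The acetylated gained sites were mostly weak peaks. The score is the authors' own value per peak, with a minimum of 60 in the list, and it ranks peaks within that list. Its median was 104 at acetylated gained sites (quartiles 76 and 167), 126 at newly acetylated sites, 92 at gained sites without H3K27ac and 205 at constant sites. The highest score among the 2699 sites was 2733, which ranked at place 83 of the list. Peak width had a median of 843 bp at the sites, against 934 bp at constant sites. In 10 equal score groups, the sites were 31.2% of the lowest-scoring peaks (28.8 to 33.7%) and 2.66% of the highest-scoring (1.89 to 3.63%), while constant sites were 12.2% of the lowest and 32.1% of the highest. Among gained peaks without Nkx2-1 the share of acetylated gained sites moved little with score, from 53.5% in the highest group to 65.2% in the fifth.

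**Figure D1:**
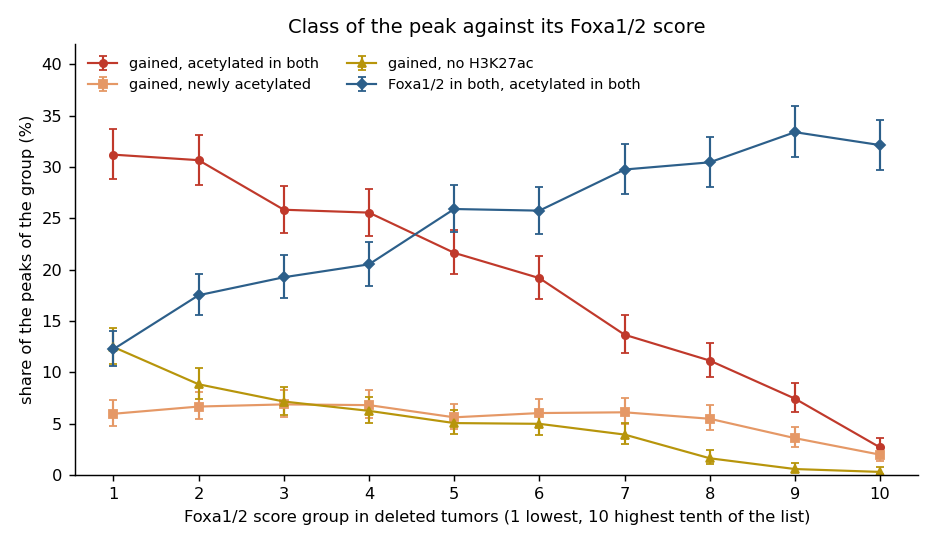
Share of deleted-tumor Foxa1/2 peaks (vertical axis, percent) in 4 classes, across 10 equal groups of Foxa1/2 score (horizontal axis, lowest to highest); bars are Clopper-Pearson 95% intervals. The acetylated gained sites fall to 2.66% in the highest group, where constant sites make up 32.1%.

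Few sites lay at the edge of the rule. A total of 14 sites had at most 100 bp under a positive-tumor H3K27ac island, the smallest overlap being 3 bp, and 24 newly acetylated sites lay within 200 bp of such an island, the nearest at 9 bp. Of the 2699 sites, 32 had a positive-tumor Foxa1/2 peak within 100 bp, the nearest at 1 bp, and 37 had an Nkx2-1 peak within 100 bp. In the other direction, 13 acetylated peaks were kept out by at most 100 bp of overlap with a positive-tumor Foxa1/2 peak, and 26 by at most 100 bp of overlap with an Nkx2-1 peak.

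Nearly all acetylated gained sites carried H3K4me1 in both tumor types. This enhancer mark, which the rule did not use, was called at 99.7% of the sites in deleted tumors (2692 sites) and at 95.4% in positive tumors (2576 sites), a difference of 4.30 points (95% interval 3.56 to 5.14) with the same sign on 19 of 19 chromosomes. Over all 14282 peaks of the list it was called at 95.6% in deleted tumors and at 91.0% in positive tumors, a difference of 4.69 points, so the change at the sites was near that of the list. A total of 2574 sites had it in both tumor types, 5 in neither, 118 (4.37%) in deleted tumors only and 2 in positive tumors only. In the whole list 5.52% had H3K4me1 in deleted tumors only and 0.826% in positive tumors only, so the share of sites with the mark in deleted tumors only was close to that of the list. At newly acetylated sites H3K4me1 was called at 96.3% in deleted tumors and at 45.9% in positive tumors. In positive tumors the acetylated gained sites thus stood 49.6 points above newly acetylated sites (46.0 to 53.1) and differed from constant sites by -4.16 points (-5.03 to -3.39), on 19 of 19 chromosomes in both cases. Acetylated gained and newly acetylated sites were set apart by H3K27ac in these same tumors, so the contrast between them is not independent of the rule.

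Fewer of the sites had the promoter mark than constant sites did. H3K4me3 was called at 34.1% of the acetylated gained sites in deleted tumors and at 39.6% in positive tumors, and at 46.9% of constant sites in deleted tumors and at 59.6% in positive tumors. Over all 14282 peaks of the list it was called at 42.1% in deleted tumors and at 55.2% in positive tumors. Within the deleted-tumor list the difference from constant sites was -12.8 points (-15.2 to -10.4), with the same sign on 19 of 19 chromosomes. Newly acetylated sites carried H3K4me3 at 5.99% in deleted tumors and at 3.69% in positive tumors. The change between tumor types took its sign from the length of the lists: it was -5.52 points with the lists as deposited, and 16.4 points (14.8 to 17.9) once the longer positive-tumor list was cut to the same covered length by read density. Constant sites moved alike, with -12.7 points as deposited and 18.4 points at equal length, and no direction is given for H3K4me3 between the tumor types.

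H3K27me3 was uncommon at the acetylated gained sites, as over all peaks of the list. It was called at 3.22% of the sites in deleted tumors and at 2.78% in positive tumors, and at 4.54% of all 14282 peaks in deleted tumors and 3.79% in positive tumors. At the sites this was a difference of 0.44 points whose interval (-0.050 to 0.96) included 0. Newly acetylated sites had it at 18.3% in deleted tumors and at 17.5% in positive tumors, and gained sites without H3K27ac at 22.1% in deleted tumors and at 21.3% in positive tumors. In deleted tumors the acetylated gained sites differed from newly acetylated sites by -15.1 points (-18.0 to -12.5), with the same sign on 19 of 19 chromosomes. Against constant sites, which had H3K27me3 at 1.84% in deleted tumors, they were 1.38 points higher (0.60 to 2.22), on 14 of 19 chromosomes.

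**Figure D2:**
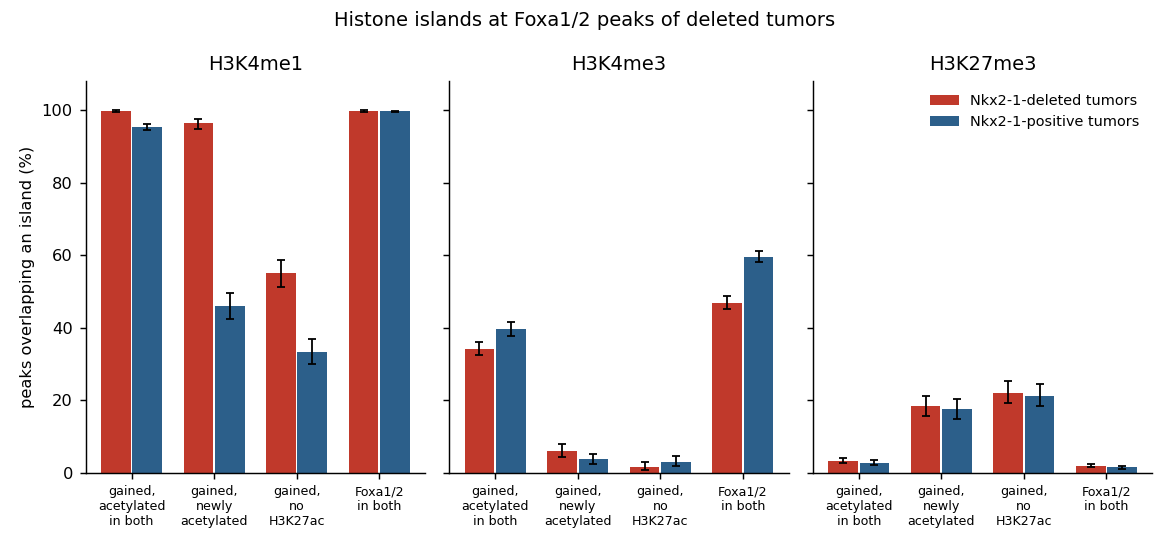
Share of peaks (vertical axis, percent) overlapping an H3K4me1, H3K4me3 or H3K27me3 island in Nkx2-1-deleted tumors (red) and Nkx2-1-positive tumors (blue), by class of peak; error bars are Clopper-Pearson 95% intervals. H3K4me1 in positive tumors stands at 95.4% for acetylated gained sites, 45.9% for newly acetylated sites and 99.6% for constant sites.

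Taking the 3 marks beside H3K27ac together, 2174 sites (80.5%, 79.0 to 82.0%) had the same combination in both tumor types. The same was true of 81.2% of constant sites (79.9 to 82.5%), 44.5% of newly acetylated sites and 75.6% of all peaks of the list. H3K4me1 alone was the most common state, at 1729 sites in deleted tumors and 1472 in positive tumors. H3K4me1 with H3K4me3 followed, at 879 sites in deleted tumors and 1038 in positive tumors. H3K27ac with none of the other marks was found at 4 sites in deleted tumors and at 113 in positive tumors. The counts of single states restate the H3K4me1 and H3K4me3 calls given above, with the same limits. They were not computed over the whole list, so nothing is read from their changes.

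The H3K27ac island under an acetylated gained site was longer in deleted tumors more often than the island under a constant site. Its median width was 6800 bp in deleted and 5200 bp in positive tumors at acetylated gained sites, and 6200 bp in deleted and 6400 bp in positive tumors at constant sites. The deleted-tumor island was the wider one at 1563 sites (57.9%), against 45.5% of constant sites and 43.6% of all deleted-tumor Foxa1/2 peaks with an island in both tumor types. The sites exceeded constant sites by 12.4 points (9.94 to 14.9). The median distance from the Foxa1/2 summit to the nearer edge of its island was 1908 bp in deleted tumors and 1247 bp in positive tumors. At 350 sites the island covered the whole Foxa1/2 peak in deleted tumors only and at 77 in positive tumors only, while at constant sites this was so in deleted tumors only at 229 and in positive tumors only at 185.

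The difference in island cover was larger at 1 kb from the summit than at the summit itself or at 10 kb. At the summit an H3K27ac island was present at 97.6% of the acetylated gained sites in deleted tumors and at 96.1% in positive tumors. The rule required both H3K27ac islands at the peak, so a small H3K27ac difference there follows from the rule. For H3K4me1, which the rule did not use, the difference at the summit was 5.48 points. At 1 kb from the summit an H3K27ac island was present at 86.8% of the acetylated gained sites in deleted tumors and at 76.1% in positive tumors, a difference of 10.6 points. Constant sites differed by 1.59 points at that distance. H3K4me1 showed the same form, with 87.4% in deleted and 72.2% in positive tumors at 1 kb. That difference of 15.2 points at acetylated gained sites compared with 7.51 points at constant sites. By 10 kb the H3K27ac difference was -1.56 points at acetylated gained sites and -3.67 points at constant sites.

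**Figure D3:**
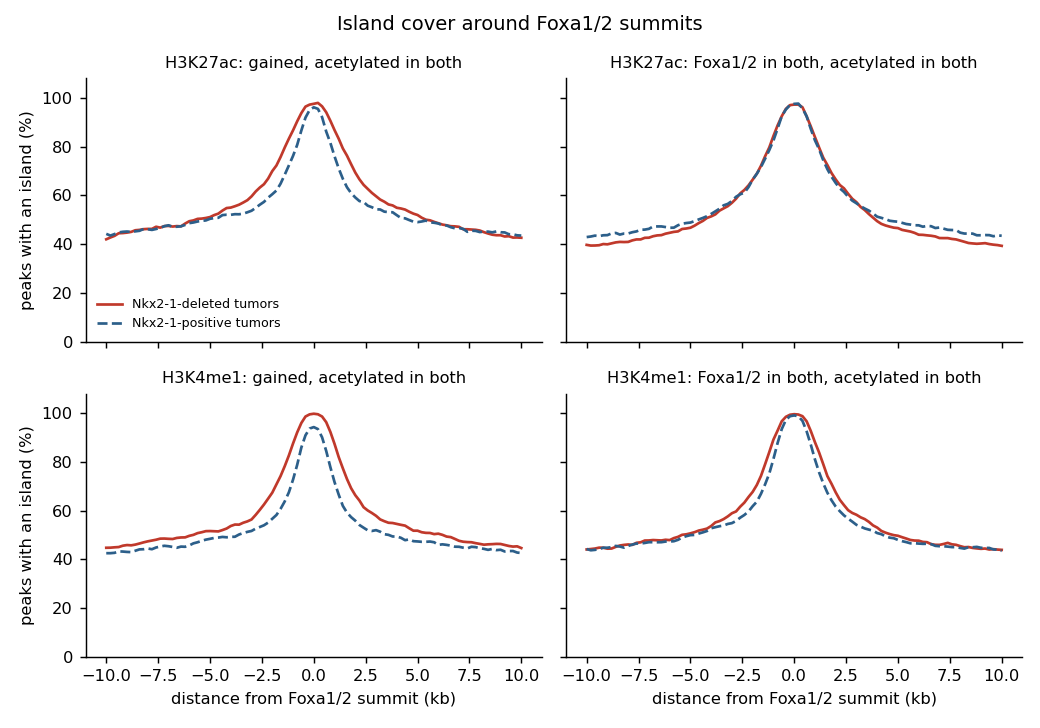
Share of peaks (vertical axis, percent) with an H3K27ac or H3K4me1 island at each distance from the Foxa1/2 summit (horizontal axis, kb), in Nkx2-1-deleted tumors (solid red) and Nkx2-1-positive tumors (dashed blue). At acetylated gained sites the deleted-tumor H3K27ac curve stands 10.6 points above the positive-tumor curve at 1 kb, while at constant sites the difference is 1.59 points.

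Island reads in deleted tumors, relative to positive tumors, were higher at the acetylated gained sites than at constant sites. Overlapping islands of both tumor types were joined into loci, and the log2 ratio of deleted-tumor to positive-tumor reads of a locus was centred on its median over all deleted-tumor Foxa1/2 peaks with islands in both lists, since the counts are not scaled for depth. A positive value therefore means more than at the typical Foxa1/2 peak of the list, not an absolute gain. This measure was chosen after the data had been seen. The median H3K27ac ratio was 0.24 at acetylated gained sites (0.21 to 0.28) and 0.02 at constant sites (-0.007 to 0.05), and it was above 0 on 19 of 19 chromosomes at the acetylated gained sites. The size of this value depends on the scale: without any scaling it was 0.025 at acetylated gained sites (-0.011 to 0.061), an interval that includes 0, and centred on all loci it was 0.64. The median H3K4me1 ratio was 0.18 at acetylated gained sites (0.16 to 0.21) and -0.02 at constant sites. The difference between both classes was 0.22 for H3K27ac and 0.20 for H3K4me1, each with the same sign on 19 of 19 chromosomes, and the scale cancels in it. The rule did not use H3K4me1, but its ratio went with that of H3K27ac, with a Spearman's rho of 0.65 across 2629 acetylated gained sites and 0.66 across 3511 constant sites. Newly acetylated sites with positive-tumor islands in the same locus (163 of 785 sites) had a median H3K27ac ratio of 1.82. These sites were chosen for having no positive-tumor island at the peak, so a high ratio follows from their definition.

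Relative to all deleted-tumor Foxa1/2 peaks measured, both H3K27ac cover and H3K27ac read density were higher at the acetylated gained sites. Before centring, reads per kb were lower in deleted than in positive tumors. The H3K27ac loci of the acetylated gained sites covered 28.4 Mb with 181 reads per kb in deleted tumors, and 26.9 Mb with 198 reads per kb in positive tumors. The loci of constant sites covered 34.6 Mb with 182 reads per kb in deleted tumors, and 35.2 Mb with 209 reads per kb in positive tumors. Centred like the reads, read density alone had a median log2 ratio of 0.13 at acetylated gained sites (0.11 to 0.16) and 0.01 at constant sites, and covered length one of 0.06 at acetylated gained sites (0.05 to 0.07) and 0.007 at constant sites. For H3K4me1 the loci covered 31.8 Mb with 122 reads per kb in deleted tumors, and 29.6 Mb with 129 reads per kb in positive tumors.

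A minority of sites carried large differences. H3K27ac locus reads were more than 2-fold higher in deleted tumors after centring at 545 of 2692 sites (20.2%, against 10.5% of all peaks measured) and more than 2-fold lower at 128 (4.75%, against 10.8%). For H3K4me1, 228 of 2635 sites were more than 2-fold higher (8.65%, against 4.85%) and 16 more than 2-fold lower (0.61%, against 2.43%). The H3K27ac ratio was above 0 at 63.8% of the sites and at 51.3% of constant sites.

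The ratio went with the score of the gained Foxa1/2 peak. In the lowest 2 of the 10 score groups the median H3K27ac ratio was 0.12 at acetylated gained sites and -0.16 at constant sites. In the highest 2 groups it was 0.90 at 144 acetylated gained sites (0.77 to 1.17) and 0.30 at 936 constant sites (0.24 to 0.36). The median H3K4me1 ratio was 0.06 at acetylated gained sites and -0.11 at constant sites in the lowest 2 groups. In the highest 2 groups it was 0.54 at acetylated gained sites and 0.15 at constant sites. Across the 2692 sites, Spearman's rho between score and H3K27ac ratio was 0.20, and across 3523 constant sites 0.27. Both the peaks and the marks of deleted tumors enter this relation, and sites of 1 list share their libraries, so it is a description.

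**Figure D4:**
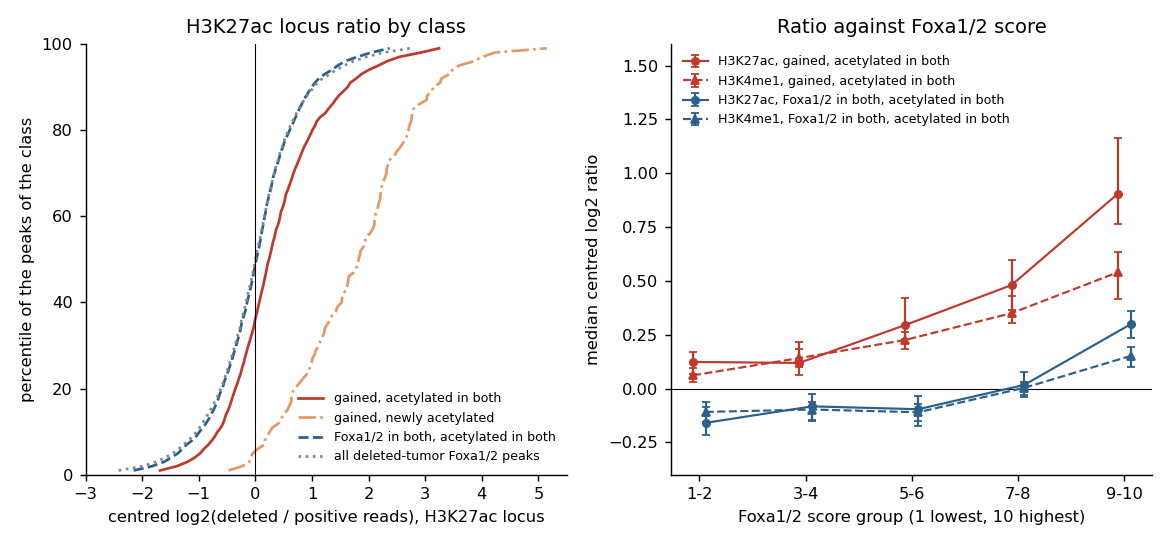
Left, cumulative distribution (vertical axis, percentile) of the centred log2 ratio of deleted-tumor to positive-tumor H3K27ac reads (horizontal axis) for 3 classes and for all deleted-tumor Foxa1/2 peaks. Right, median centred log2 ratio (vertical axis) of H3K27ac and H3K4me1 across pairs of Foxa1/2 score groups (horizontal axis), with 95% intervals of the median; the acetylated gained sites lie above the constant sites in each pair and reach 0.90 for H3K27ac in the highest.

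The acetylated gained sites lay nearer to the Foxa1/2 and Nkx2-1 peaks of positive tumors than other gained sites did. The median gap to the nearest positive-tumor Foxa1/2 peak was 11319 bp at the acetylated gained sites, 30378 bp at newly acetylated sites and 39595 bp at gained sites without H3K27ac. The median gap to the nearest Nkx2-1 peak was 8267 bp at the acetylated gained sites, 24393 bp at newly acetylated sites and 7333 bp at constant sites. Within 10 kb, 47.4% of the acetylated gained sites had a positive-tumor Foxa1/2 peak, and 19.5% of newly acetylated sites did. An Nkx2-1 peak lay within 10 kb of 54.9% of the acetylated gained sites, 24.8% of newly acetylated sites and 56.9% of constant sites. The rule placed these sites in positive-tumor H3K27ac islands and the other gained classes outside them, and it barred overlap with the peaks measured here. The gaps are therefore not independent of the rule and are given as a description.

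The positive-tumor islands that held the sites fell into a set with other factor peaks and a set without. At 1113 sites (41.2%, 39.4 to 43.1%) the positive-tumor H3K27ac island held a Foxa1/2 or Nkx2-1 peak of positive tumors elsewhere along its length, and at 1586 (58.8%) it held neither. An Nkx2-1 peak was in the island at 991 sites (36.7%), against 42.5% of constant sites. Constant sites carry a positive-tumor Foxa1/2 peak by their definition, so no share of theirs is set beside the Foxa1/2 count. A Foxa1/2 peak of positive tumors was in the island at 836 sites. At 354 of these such peaks were all still called in deleted tumors, at 237 all were lost, and at 245 some were lost and some kept. The positive-tumor Foxa1/2 list is much longer than the deleted-tumor one (23039 against 14526 peaks). The share lost over that whole list was not computed, so nothing is read from these counts. Islands with another peak were long, with a median of 12000 bp, and those without had a median of 3000 bp.

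The median ratios were higher at the 1586 sites whose island held no other factor peak. Their median centred H3K27ac ratio was 0.43 (0.38 to 0.49), against 0.09 (0.05 to 0.13) at the 1113 sites with such a peak. The H3K4me1 ratio was 0.31 at the 1586 sites and 0.05 at the 1113. H3K27me3 was called in deleted tumors at 5.17% of the 1586 sites and at 0.449% of the 1113. The split and the ratio both use the positive-tumor island, whose width differed between both sets as given above, so they are not independent. In loci over 5 kb the median H3K27ac ratio was 0.49 at 865 sites without such a peak (0.43 to 0.57) and 0.09 at 1031 with one (0.05 to 0.13). In loci of at most 5 kb it was 0.34 at 715 sites without (0.26 to 0.42) and 0.10 at 81 with one (0.008 to 0.20). This division by width was added after the data had been seen. Over all sites, loci of at most 5 kb had a median H3K27ac ratio of 0.30 (796 sites) and longer loci of 0.22 (1896 sites).

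The sites were scattered over many islands. They fell in 2547 of 71961 autosomal positive-tumor H3K27ac islands, and 2412 of these islands held 1 site, 119 held 2, and 16 held 3 or more. The median distance from a site's summit to the next was 86.2 kb. The island with the most sites (4) was the 65.0 kb island chr11:86379001-86444000 (mm9), which held 10 deleted-tumor Foxa1/2 peaks, 5 positive-tumor Foxa1/2 peaks and 10 Nkx2-1 peaks, and of which deleted-tumor islands covered 99.7%. Of islands with 3 sites, the longest was chr9:32500001-32561400, with 3 deleted-tumor Foxa1/2 peaks, a single positive-tumor Foxa1/2 peak that was lost, and an Nkx2-1 peak.

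The H3K27ac ratio differed between sites by what H3K4me1 and H3K4me3 did. The 118 sites with H3K4me1 in deleted tumors only had a median H3K27ac ratio of 0.68 (0.45 to 0.84), with islands of 6100 bp in deleted and 2200 bp in positive tumors, against a ratio of 0.23 at the 2574 sites with H3K4me1 in both. H3K4me3 was called in deleted tumors only at 113 sites (4.19%, against 1.86% of the whole list) and in positive tumors only at 262 (9.71%, against 15%), counts that rest on lists of unequal length. The 113 sites had a median Foxa1/2 score of 154 and a median H3K27ac ratio of 0.90 (0.79 to 1.08), with 90.3% of ratios above 0. The 262 sites had a median score of 99 and a median H3K27ac ratio of -0.12 (-0.21 to 0.02). H3K27me3 was called in deleted tumors only at 28 sites (1.04%, against 1.35% of the list) and in positive tumors only at 16 (0.59%, against 0.602%). At the 28 sites the median H3K27ac ratio was -0.02 (-0.29 to 0.63). At the 16 sites the H3K27ac ratio ranged between -2.23 and 5.02, was above 0 at 12, and had a median of 1.49 whose interval (-0.02 to 2.85) included 0. The median was 0.23 at sites with H3K27me3 in both tumor types and 0.24 at sites with it in neither, so no difference is read for this mark.

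Single sites show the range. The highest-scoring one, chr6:22316392-22317677 (mm9, 1286 bp, score 2733), lay in an H3K27ac island of 27.4 kb in deleted tumors and at the edge of one of 6.4 kb in positive tumors, which covered 78.5% of the peak. Another positive-tumor H3K27ac island ended at -7.1 kb from the summit, close to the start of the 6.4 kb one at -6.1 kb. The widths thus differ in part because the positive-tumor stretch was called as separate islands. Over the joined locus the centred log2 ratio was 0.83 for H3K27ac and 0.12 for H3K4me1. H3K4me1 covered 100% of that peak in deleted tumors, against 0% in positive tumors. Its nearest positive-tumor Foxa1/2 peak was 3.71 kb away. The second by score, chr10:97966707-97968003 (score 1821), had islands of 3.6 kb in deleted and 1.2 kb in positive tumors. The third, chr15:25592447-25593693 (score 1744), had islands of 8.8 kb with 934 reads in deleted tumors and of 1.6 kb with 103 reads in positive tumors, a ratio of 3.40. H3K4me3 covered 64.2% of this peak in deleted tumors and 0% in positive tumors, while H3K4me1 covered it fully in both.

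Of the 10 highest-scoring sites, 8 had the wider H3K27ac island in deleted tumors, while chr4:102199554-102200874 (score 1164) had islands of 4.0 kb in deleted and 10.2 kb in positive tumors. The site chr1:75060533-75061702 (score 1255) had islands of 12.2 kb with 2129 reads in deleted tumors and 2.6 kb with 163 reads in positive tumors. At chr7:117791846-117793105 (score 1413), H3K27me3 covered 0% of the peak in deleted tumors and 100% in positive tumors, with H3K27ac over the whole peak in both. By contrast chr2:117630072-117631252 (score 1275), 1.07 kb from a positive-tumor Foxa1/2 peak, had islands of 14.8 kb in deleted and 15 kb in positive tumors and a ratio of 0.16.

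The site with the highest H3K27ac ratio was chr2:163332073-163333888, also among the 5 widest at 1816 bp, with a score of 706. Its H3K27ac island spanned 9.2 kb with 1866 reads in deleted tumors and 1.0 kb with 67 reads in positive tumors, for a centred log2 ratio of 5.02. H3K4me1 covered 100% of the peak in deleted tumors, against 0% in positive tumors. H3K4me3 covered 100% in deleted and 70.9% in positive tumors. H3K27me3 covered 0% of the peak in deleted tumors and 100% in positive tumors, so that in positive tumors the Polycomb mark and a short H3K27ac island were called over the same bases. The widest site of all, chr12:78298119-78300323 (2205 bp, score 305), had islands of 8.2 kb in deleted and 7.6 kb in positive tumors and a ratio of 1.01.

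**Figure D5:**
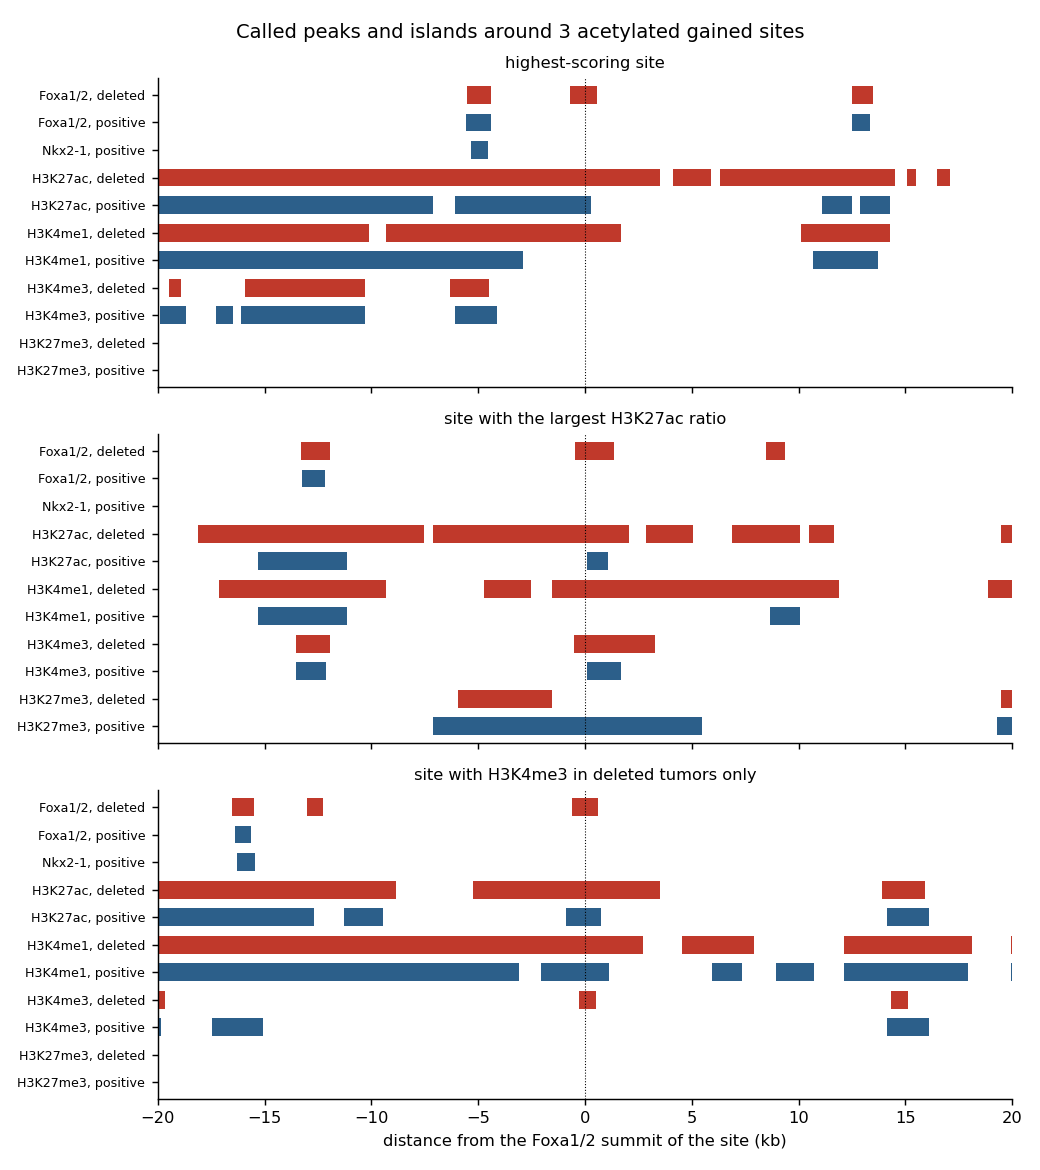
Called peaks and islands within 20 kb of the Foxa1/2 summit (horizontal axis, kb) at 3 acetylated gained sites, with deleted-tumor lists in red above positive-tumor lists in blue. The sites are those at chr6, chr2 and chr15 described in the text. In that order they are the highest-scoring site, the site with the largest H3K27ac ratio, and a site with H3K4me3 in deleted tumors only. They were picked after the values were seen and are not typical of the class. At the chr2 site the H3K27ac island spans 9.2 kb in deleted and 1.0 kb in positive tumors.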

How the data were processed

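The deposited files are peak lists for Foxa1/2 and Nkx2-1 and island lists for the histone marks, in mm9 coordinates. Per the submitters' processing notes the tools were Bowtie, MACS 1.4.2 and SICER 1.1, with no role stated. Per the file headers and names, libraries were merged, the peak p was 1e-06, the island window was 200 bp and the FDR 0.01, and the gap was 200 bp for H3K27ac and H3K4me3 and 600 bp for the other marks. The authors' score ranks each peak, and the authors' read count per island is not scaled for depth.

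Overlap needed 1 bp. Shares carry Clopper-Pearson intervals, differences Newcombe intervals (paired for the same peaks) and medians order-statistic intervals, all at 95% and for counting error only; no p-value was computed, since each group is 1 pooled list. Locus reads were summed over joined islands. The interval functions were tested on simulated lists. The locus ratio was tested with simulated counts on the positive-tumor H3K27ac islands, with the same starts and ends in both lists. The joining of unlike islands was not tested. Regions named in the text are the 10 highest-scoring and 5 widest sites, the 5 islands with most sites, the 2 highest-scoring sites per class of mark change, and the 5 nearest to and farthest from a positive-tumor Foxa1/2 peak, of which the text gives a part. The rule, the classes and the lists were chosen with earlier results of these data known. No genome or annotation of mm9 was used, so no gene was assigned and no sequence is printed, and the planned gene lists and motifs were not analysed here. The 9 inputs were not used here. Python 3.11.15 with numpy 2.4.6, scipy 1.17.1 and matplotlib 3.10.9 was used.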

Additional observations from a re-analysis of the deposited data

How the results depend on the processing

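No paired analysis was possible because both files of each group are identical, and for the same reason no replicate could be left out. Of 98 recomputed values, 64 stayed within the main interval (counts and differences of ratios within 1.5 times), 32 moved beyond it and 2 changed sign. The changes of sign were H3K4me3 between tumor types at equal covered length (16.4 points) and H3K27me3 in the upper 50% of peaks by score (-0.129 points). That upper part held 775 sites with a median score of 238, and gave -0.516 points for H3K4me3, 68% of islands wider in deleted tumors, 35.9% of islands with another peak, and median ratios of 0.43 for H3K27ac and 0.29 for H3K4me1, 0.38 above constant sites for H3K27ac. Island lists cut to their upper 50% by count gave 6.63 points for H3K4me1 and -8.89 for H3K4me3, and 64.4 points for H3K4me1 against newly acetylated sites. It also gave -8.78 points for H3K4me3 against constant sites, 52.4% wider islands, 55.4% with another peak, a median gap of 9.13 kb, ratios of 0.18 (H3K27ac) and 0.13 (H3K4me1), and differences from constant sites of 0.14 (H3K27ac) and 0.13 (H3K4me1). Equal covered length gave 6.74 points for H3K4me1, and 55.3 points against newly acetylated sites. Overlap of 50% of the shorter interval gave -6.94 points for H3K4me3 and 44.9% with another peak. The following were chosen after the data had been seen. Without scaling, the median H3K27ac ratio was 0.025 (-0.011 to 0.061). Scaled by reads in islands, it was 0.58 (H3K4me1 0.44), and centred on all loci 0.64 (H3K4me1 0.39), so its size depends on the scale, which cancels by construction in the difference from constant sites; values that an alternative cannot move were not counted. In loci of at most 5 kb the ratio was 0.30 for H3K27ac and 0.37 for H3K4me1, and in loci with no positive-tumor factor peak 0.38 for H3K27ac and 0.36 for H3K4me1. Depth beyond the islands is not known, so a mark that was not called may lie under the callers' limit.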
